A study of Mus musculus with 32 samples.

Results

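Striatal mRNA of the AMPA receptor family was compared between Line 4a congenic mice and their B6 littermates. The family was taken as 10 genes given by name, the 4 subunits Gria1, Gria2, Gria3 and Gria4 and the 6 transmembrane AMPA receptor regulatory proteins (TARPs) Cacng2, Cacng3, Cacng4, Cacng8, Cacng5 and Cacng7. No expression value was used to select them, but the choice was made with earlier results of these data known. All 10 had a row among the 23420 genes of the count tables, and all 10 were among the 15589 genes with enough reads to be tested.

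The study used congenic lines to map a chromosome 11 locus for reduced sensitivity to methamphetamine, and sequenced striatal RNA to look for transcriptional differences in one such line. Controls were 8 C57BL/6J (B6) mice, and the other group was 8 B6.D2 congenic mice of Line 4a, which carried 1 copy of a chromosome 11 segment from DBA/2J (D2) on an otherwise B6 genome. Mice of both groups were naïve to drug and about 50 days old, and the sample of each mouse was a pool of 3 mm punches from its left and right striatum. These are the age and punch size of the labels, and the study's methods give a smaller punch and ages that extend higher. The labels give neither sex nor cage, and each RNA sample comes from 1 mouse, so that p-values measure the spread between mice.

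AMPA receptors carry most fast excitatory transmission in the brain. They are tetramers of the GluA subunits encoded by the Gria genes, and in striatal projection neurons they receive the glutamate released by cortical and thalamic axons. TARPs are membrane proteins that bind these receptors, bring them to the surface and to synapses and slow their closing. Type I TARPs (Cacng2, also called stargazin, Cacng3, Cacng4 and Cacng8) do so for a broad range of receptors, whereas the type II TARPs Cacng5 and Cacng7 differ from them in sequence and in how they alter gating.

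The 4 subunit genes are close relatives, so a short read can match more than one of them, and such a read is not counted for any. The longest stretch of coding sequence that 2 of the subunits shared exactly was 55 bases, between Gria2 and Gria4, and reads were 50 bases long. It is shown with the matching stretch of Gria1 and Gria3 because it is where a read could not be assigned. Capitals mark bases that differ from Gria2, and the sequences are from GENCODE protein-coding transcripts on NCBIM37.
Gria1: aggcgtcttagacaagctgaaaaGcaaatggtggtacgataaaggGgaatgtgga
Gria2: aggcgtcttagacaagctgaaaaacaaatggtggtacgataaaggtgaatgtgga
Gria3: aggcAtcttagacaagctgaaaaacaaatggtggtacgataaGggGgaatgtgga
Gria4: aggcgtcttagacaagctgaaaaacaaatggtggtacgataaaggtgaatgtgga
Gria1 differed from Gria2 at 2 of the 55 positions and Gria3 at 3. Windows of 50 bases shared exactly with another subunit made up 0.0869% of the Gria2 transcript and 0.111% of the Gria4 transcript, and there were 0 in Gria1 and Gria3. Among the TARPs the closest pairs were Cacng2 with Cacng3, Cacng4 with Cacng8 and Cacng5 with Cacng7, and each pair still differed at 6 or more bases in every window of 50.

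Depth was similar across mice. Between 19032826 and 33748353 reads per mouse were assigned to genes, and the lowest count of any of the 10 genes was 160 reads, for Cacng5, so that counting error alone was at most 7.91% of a value. The striatal label was checked against 11 striatal projection neuron markers, and all were detected in every mouse, among them Ppp1r1b (DARPP-32) at 1052 to 1748 CPM (read counts scaled to library size) in B6 and 1155 to 1934 CPM in Line 4a. Cortical glutamatergic markers summed to 536.6 to 845.6 CPM in B6 and 385.8 to 743.0 CPM in Line 4a. Of them 8 of 12 were lower in Line 4a at an unadjusted p under 0.05, against 5.14% of all genes tested. Without Line 4a mouse 1 it was 9 of 12, against 13.4% of all genes, in either direction, in that fit. None of these markers was at 0. The cortical list was chosen with earlier results of these mice known, so its count is no independent test. Of the other marker lists, 0 of 11 striatal projection neuron, 0 of 5 oligodendrocyte precursor, 0 of 6 oligodendrocyte and 0 of 5 choroid plexus genes had an unadjusted p under 0.05, while 1 of 9 interneuron (Slc18a3) and 1 of 6 astrocyte genes (Gjb6) did, both higher in Line 4a, against 4.86% of all genes. Without Line 4a mouse 1 neither did (unadjusted edgeR p = 0.068 and 0.054), and 2 interneuron genes did in the other direction. These were Sst (log2 fold change -0.18, unadjusted edgeR p = 0.0071) and Npy (-0.20, p = 0.0034), against 13.4% of all genes, in either direction, in that fit. These 4 genes are named for this change after their values were seen. In 2 mice the profile stood apart over all genes, Line 4a mouse 1 and B6 mouse 8, and values without them are given beside the results that they changed most. In whole tissue, fewer cells of a type and less RNA per cell cannot be told apart.

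None of the 10 genes passed the test between genotypes at a false discovery rate (FDR) of 5%. Over all genes 0.00641% passed (1 gene). The count was again 0 of 10 with the likelihood ratio test, which called 0.128% of all genes, and with DESeq2, which called 0.160%. At an unadjusted p under 0.05 it was 0 of 10 in either direction, whereas 5.14% of all genes tested were lower and 4.86% higher in Line 4a at that threshold. The groups overlapped for each of the 10, and over all genes 0.0577% did not overlap. All 10 had a lower mean in Line 4a, against 45.1% of all genes, with log2 fold changes (Line 4a over B6) from -0.13 to -0.04 and a median of -0.08 beside 0.01 for all genes tested. Taking the 10 intervals together, the 95% limits reached from a level 21.0% lower to one 15.1% higher in Line 4a. Without Line 4a mouse 1, 9 of the 10 were lower, against 50.4% of all genes, and 2 (Cacng3 and Cacng5) had an unadjusted p under 0.05, against 13.4%. Without both that mouse and B6 mouse 8 the 2 were Gria4 and Cacng5, against 12.8% of all genes. Entering lane files as if they were separate mice gave Cacng5 and Cacng7, against 24.3%.

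**Figure D1:**
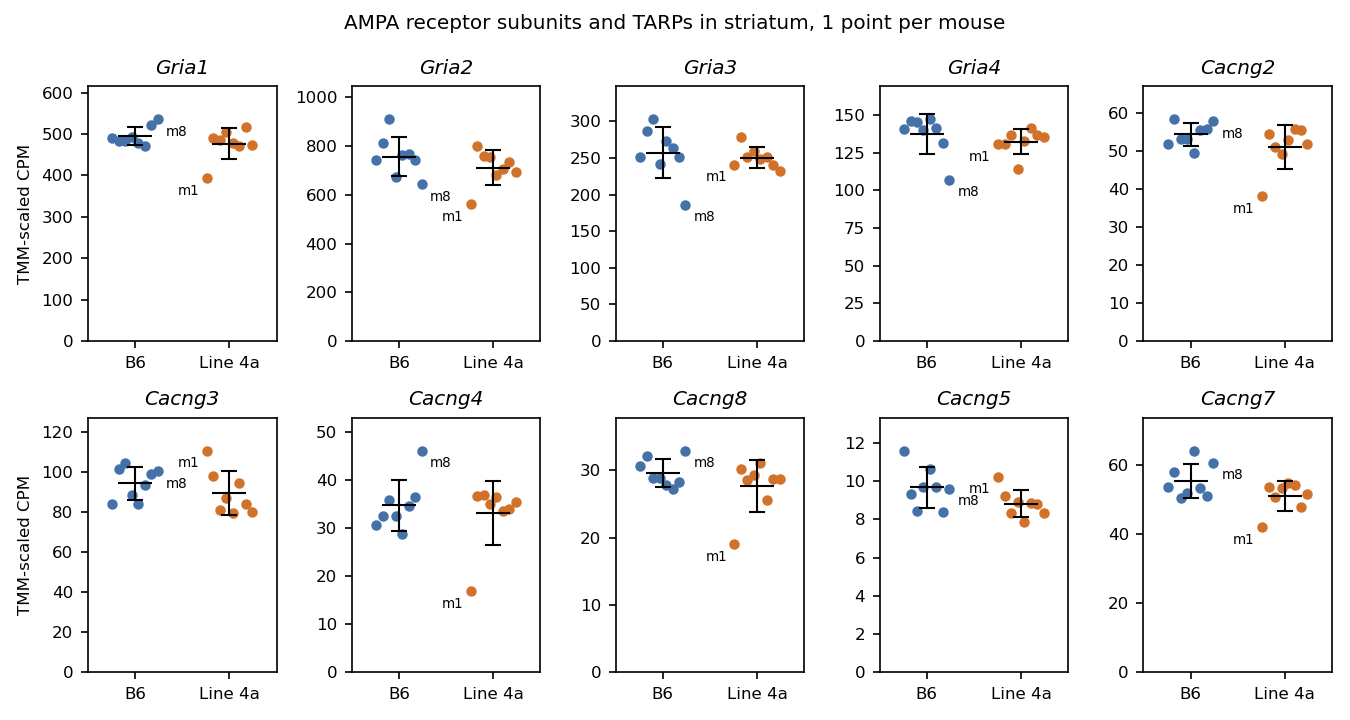
Normalised read count (TMM-scaled CPM, linear axis from 0) of the 10 genes, with 1 point per mouse, 8 B6 mice in blue and 8 Line 4a mice in orange, the bar at the mean and whiskers of 1 SD. The groups overlap in every panel, and the mice marked m1 (Line 4a mouse 1) and m8 (B6 mouse 8) lie at an end of their group in most panels.

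Gria1 encodes GluA1, the subunit whose insertion at synapses is regulated during plasticity. It lies at chr11:57011571-57330244 (mm10, plus strand), and genotyped markers on both sides of it were heterozygous in Line 4a, which places it within the D2 segment. In B6 mice it ranged from 469.8 to 535.5 CPM with a median of 487.7, and in Line 4a from 392.9 to 517.7 with a median of 481.6. The low end came from Line 4a mouse 1 alone, since the other 7 congenics lay between 471.5 and 517.7 CPM, inside the range of B6. The log2 fold change was -0.05 (SE 0.05, 95% interval -0.16 to 0.06, edgeR FDR 0.732) and -0.02 without that mouse. An exact two-sided permutation test over the mice gave p = 0.293 (n = 8 per group). The difference was smaller than the spread between mice of either genotype.

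The neighbourhood of Gria1 was taken as the 5 nearest tested genes on each side, which span chr11:55204322-58062034 (mm10). Of these 10 genes 6 had a lower mean in Line 4a, 4 had an unadjusted p under 0.05 and 0 passed FDR 5%. Over all genes 45.1% had a lower mean, and 5.14% were lower and 4.86% higher at an unadjusted p under 0.05. Without Line 4a mouse 1 the counts were 7 lower, against 50.4% of all genes, and 3 with an unadjusted p under 0.05, against 13.4%. Slc36a1, a proton-coupled amino acid transporter, was at 75.3 ± 4.22 CPM in B6 and 64.0 ± 4.45 CPM in Line 4a (mean ± SD, n = 8 each, log2 fold change -0.24, edgeR FDR 0.292). For Mfap3 the means were 37.4 ± 2.23 and 31.9 ± 2.64 CPM (log2 fold change -0.23, edgeR FDR 0.331). Fam114a2, which adjoins Mfap3, had a log2 fold change of -0.11 (edgeR FDR 0.397), and Sparc, a matrix protein gene, one of 0.31 (edgeR FDR 0.466), which was 0.23 with an unadjusted p of 0.078 without Line 4a mouse 1. The other 6 (Atox1, G3bp1, Nmur2, Galnt10, Sap30l and Larp1) had edgeR FDR values of 0.698 to 0.959. The difference at Gria1 was smaller than at these 4 genes and lay among those of the rest, which ran from -0.26 for Nmur2, at under 1 CPM, to 0.12 for Atox1. Without that mouse these were -0.10 and -0.03.

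Gria2 encodes GluA2, the subunit whose edited form keeps calcium out of the channel. The gene (chr3:80681450-80804227, minus strand) ranged from 644.3 to 910.5 CPM in B6 with a median of 753.6, and from 561.8 to 800.6 CPM in Line 4a with a median of 719.7. The lowest mice of the 2 groups were B6 mouse 8 and Line 4a mouse 1, and 5 of 8 congenics lay below the B6 median. This gave a log2 fold change of -0.09 (SE 0.07, 95% interval -0.25 to 0.07, edgeR FDR 0.685). Leaving out either Line 4a mouse 1 or B6 mouse 3, the highest of its group, brought it to -0.05.

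Gria3, encoding GluA3, lies on the X chromosome (chrX:41400819-41678601, plus strand). Its range was wide in B6, 186.2 to 302.9 CPM with a median of 257.5, and narrower in Line 4a, 231.9 to 279.1 CPM with a median of 249.8. All Line 4a mice fell within the B6 range, whose low end was again B6 mouse 8. Its log2 fold change was -0.04 (SE 0.07, 95% interval -0.20 to 0.12, edgeR FDR 0.872) and -0.10 without that mouse. Without B6 mouse 3, the highest, it was -0.0033.

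Gria4 encodes GluA4, a subunit of rapidly gating receptors that is prominent in some interneurons and in glia. From chr9:4417893-4796234 (minus strand) it gave 107.1 to 147.1 CPM in B6 with a median of 141.0, and 113.8 to 141.4 CPM in Line 4a with a median of 134.1. Although 7 of 8 congenics lay below the B6 median, the lowest value of all belonged to B6 mouse 8, and the other 7 B6 mice lay between 131.3 and 147.1 CPM. The log2 fold change was -0.06 (SE 0.06, 95% interval -0.18 to 0.07, edgeR FDR 0.766), and the exact permutation p over the mice was 0.384 (n = 8 per group). Leaving out B6 mouse 8 moved the log2 fold change to -0.10 with an unadjusted edgeR p of 0.029 (FDR 0.527), against 8.86% of all genes with an unadjusted p under 0.05 in that fit. Leaving out Line 4a mouse 4, the lowest congenic, moved it to -0.03. The study names Gria4 among its downregulated genes, whereas it passed in none of the fits made here. The study's edgeR model had home cage as a covariate, which the labels do not give. Whether cage accounts for the differing result was therefore not tested.

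Per kilobase of annotated exon, the level ran Gria2, Gria1, Gria3, Gria4. Over the 16 mice the means were 105.6 ± 11.2 CPM per kb for Gria2 and 80.4 ± 5.16 CPM per kb for Gria1 (SD). Gria3 stood at 25.7 ± 2.65 and Gria4 at 21.5 ± 1.75 CPM per kb. Gria2 exceeded Gria1 and Gria3 exceeded Gria4 in each of the 16 mice, but the ranges of neighbours in this order overlapped between mice, 80.8 to 130.9 against 65.0 to 88.6 CPM per kb for the first pair and 18.9 to 30.7 against 17.1 to 23.5 for the second. The exon lengths are from GENCODE on NCBIM37, which was not the annotation used for counting. With the longest coding transcript in place of all exons Gria3 stood at 48.9 CPM per kb, and Gria1 exceeded Gria2 in B6 mouse 8.

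Expressed as a share of the 4 subunits per kb, the make-up was alike in both genotypes. Gria1 made up 34.4 ± 3.25% in B6 and 34.7 ± 0.995% in Line 4a (SD, n = 8 each). Gria2 made up 45.5 ± 2.19% and 44.9 ± 1.45%, and Gria3 10.9 ± 0.969% and 11.2 ± 0.772%. For Gria4 the shares were 9.17 ± 0.678% in B6 and 9.31 ± 0.954% in Line 4a. Each of these differences was smaller than 1 SD of the B6 mice. The shares depend on the length used, and with the longest coding transcript Gria3 made up 18.1% in B6 and 18.5% in Line 4a and Gria2 39.8% and 39.2%. The mouse farthest from the rest was B6 mouse 8, in which Gria1 reached 40.8% and Gria3 was down to 8.70%.

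**Figure D2:**
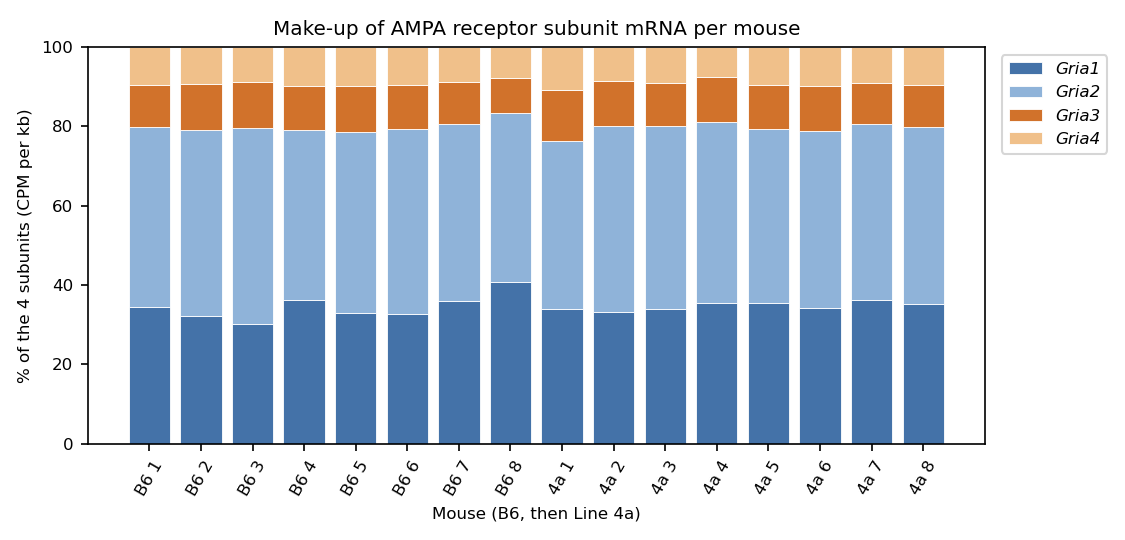
Share of each of the 4 subunit genes in their summed CPM per kb of annotated exon (y axis, percent), with 1 stacked bar per mouse, 8 B6 mice and then 8 Line 4a mice. Gria2 is the largest part of every bar (42.3 to 49.4%) and Gria4 the smallest (7.68 to 10.9%), and the bar of B6 mouse 8 has the most Gria1.

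The sum of the 4 subunits ran from 1473 to 1843 CPM in B6 with a median of 1645, and from 1326 to 1701 CPM in Line 4a with a median of 1599. For the 6 TARPs the sum ran from 262.2 to 307.6 CPM in B6 with a median of 276.0, and from 236.8 to 282.0 CPM in Line 4a with a median of 260.9. Both sums overlapped between the groups, and the lowest mouse in each was Line 4a mouse 1.

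Among the type I TARPs, Cacng2 (chr15:77991919-78120220, minus strand) encodes stargazin, the founding member, whose loss causes the ataxia of the stargazer mouse. It ranged from 49.3 to 58.2 CPM in B6 with a median of 54.2, and from 38.0 to 55.7 CPM in Line 4a with a median of 52.3. Line 4a mouse 1 was low, and the other 7 congenics (49.0 to 55.7 CPM) lay almost wholly within the B6 range. The log2 fold change was -0.09 (SE 0.07, 95% interval -0.23 to 0.05, edgeR FDR 0.647), and it was -0.04 without Line 4a mouse 1. A gene on the opposite strand overlaps 323 of the 5510 exon bases of Cacng2 in GENCODE on NCBIM37, and counting was without strand.

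Cacng3 (chr7:122671744-122769393, plus strand), the cortical and striatal relative of stargazin, ranged from 84.0 to 104.5 CPM in B6 with a median of 96.2, and from 79.8 to 110.7 CPM in Line 4a with a median of 85.8. Here Line 4a mouse 1 was the highest of all 16 mice, and 6 of 8 congenics lay below the B6 median. Over all mice its log2 fold change was -0.08 (SE 0.07, 95% interval -0.23 to 0.07, edgeR FDR 0.708). Without that mouse it was -0.13 with an unadjusted edgeR p of 0.036.

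Cacng4 (chr11:107732357-107794706, minus strand), a TARP of developing brain and of glia, was the most variable of the 10 genes, with a biological coefficient of variation of 18.2% against 8.03% for Gria1. It ranged from 28.9 to 46.1 CPM in B6 with a median of 33.5, and from 16.8 to 36.9 CPM in Line 4a with a median of 35.2, so the median was higher and the mean lower in Line 4a. Both ends were single mice, B6 mouse 8 at the top and Line 4a mouse 1 at the bottom. The log2 fold change of -0.07 (SE 0.13, 95% interval -0.34 to 0.20, edgeR FDR 0.874) became 0.03 without Line 4a mouse 1, -0.0014 without B6 mouse 8 and 0.10 without both mice. Although it is on chromosome 11, it lies outside the D2 segment, as does Cacng5.

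Cacng8 (chr7:3394042-3416266, plus strand), the TARP best known from hippocampus, ranged from 27.2 to 32.9 CPM in B6 with a median of 28.9, and from 19.1 to 31.1 CPM in Line 4a with a median of 28.7. B6 mouse 8 was its highest and Line 4a mouse 1 its lowest mouse. For Cacng8 this came to a log2 fold change of -0.10 (SE 0.08, 95% interval -0.27 to 0.07, edgeR FDR 0.677) and of -0.04 without Line 4a mouse 1.

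The type II TARPs had the 2 smallest p-values of the family, and neither passed. Cacng5 (chr11:107874604-107915055, minus strand) ranged from 8.40 to 11.6 CPM in B6 with a median of 9.64, and from 7.84 to 10.2 CPM in Line 4a with a median of 8.82. All but 1 of the congenics lay below the B6 median, the exception being Line 4a mouse 1, and the groups overlapped over most of their range. Cacng5 had a log2 fold change of -0.13 (SE 0.07, 95% interval -0.29 to 0.02, edgeR p = 0.0831, FDR 0.548), and without that mouse -0.17 with an unadjusted edgeR p of 0.022. Without B6 mouse 1, the highest B6 mouse, it was -0.09 with a p of 0.218.

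Cacng7 (chr7:3332027-3368221, plus strand), which lies beside Cacng8, ranged from 50.5 to 64.1 CPM in B6 with a median of 53.4, and from 42.0 to 54.8 CPM in Line 4a with a median of 52.5. The B6 mice reached higher, and the medians differed by less than the SD of either group. The log2 fold change was -0.12 (SE 0.06, 95% interval -0.25 to 0.01, edgeR p = 0.0724, FDR 0.534), and it was -0.07 without Line 4a mouse 1 and B6 mouse 8 together. The exact two-sided permutation p was 0.0847 for Cacng7 and 0.0819 for Cacng5 (n = 8 per group).

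**Figure D3:**
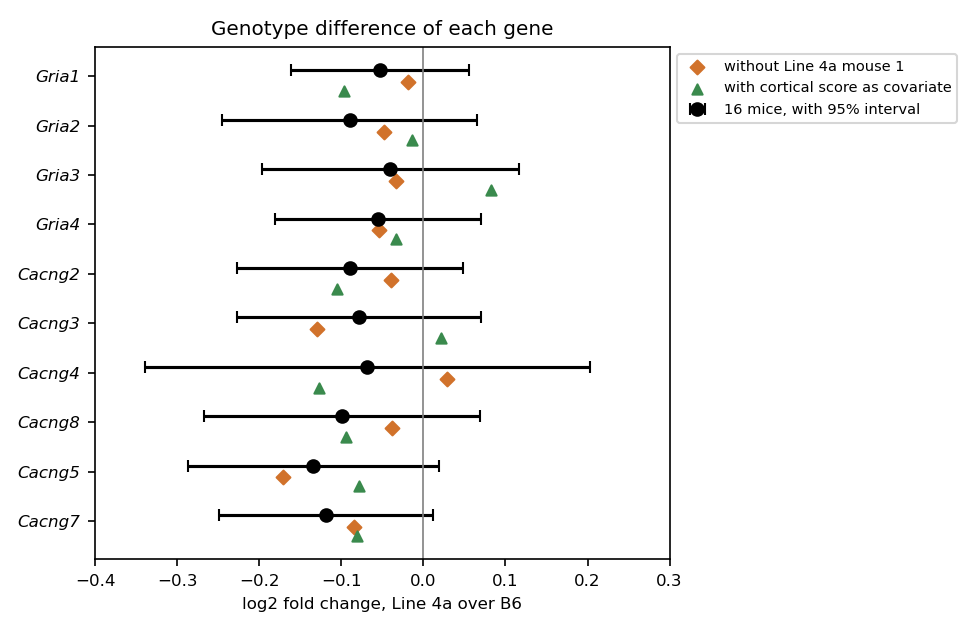
Log2 fold change (x axis, Line 4a over B6) of the 10 genes over 16 mice (black, bars are 95% intervals), without Line 4a mouse 1 (orange) and with a score of cortical markers as a covariate (green). All black points lie below 0 and all bars cross it, and Cacng4 moves above 0 without that mouse, while Gria3 and Cacng3 do so with the covariate.

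Per kilobase of annotated exon the TARPs ran Cacng3, Cacng7, Cacng2, Cacng4, Cacng5, with Cacng8 left out because its gene model holds coding bases only. Cacng3 stood at 60.4 ± 6.35 CPM per kb (SD, 16 mice), on a model of 1523 bases, and Cacng7 at 24.0 ± 2.27. Cacng2 at 9.55 ± 0.859 and Cacng4 at 9.49 ± 1.64 CPM per kb did not differ beyond their spread. Cacng5, at 2.41 ± 0.255 CPM per kb, was below every other TARP in this order in every mouse. The remaining members of the gamma subunit family, which are not TARPs, are neighbours of these genes. Cacng1, the skeletal muscle calcium channel subunit, lies next to Cacng4 and was at 1.81 ± 0.341 CPM in B6 and 1.87 ± 0.275 CPM in Line 4a (SD, n = 8 each, edgeR FDR 0.895). Cacng6, next to Cacng8, had 2 to 9 reads per mouse in B6 and 0 to 3 in Line 4a and was left out of the edgeR fit as too low. An exact two-sided permutation test of its CPM gave an unadjusted p of 0.00575 (n = 8 per group), at only 0 to 9 reads per mouse.

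In Line 4a mouse 1, 6 of the 10 genes had the lowest and 2 the highest level of its group. Its log2 deviation from the median of the other 7 congenics was -1.07 for Cacng4, -0.59 for Cacng8, -0.47 for Cacng2, -0.38 for Gria2 and 0.39 for Cacng3. Its median absolute deviation over the 10 genes, 0.365 on the log2 scale, was close to that over all genes, 0.339. In B6 mouse 8 the largest deviations were 0.50 for Cacng4, -0.50 for Gria3 and -0.40 for Gria4. The other 14 mice deviated by at most 0.29.

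Further values moved in these 2 mice. In Line 4a mouse 1, 27.3% of reads matched more than one place, against 19.5 to 21.4% in the other mice. Summed interneuron markers were at 592.0 CPM there, the highest of 16, with medians of 400.3 CPM in B6 and 392.6 CPM in Line 4a, but the list did not move as one. Sst (260.8 CPM), Pvalb (160.7 CPM) and Npy (90.4 CPM) were above the other congenics, whereas Nos1 was at 1.88 CPM, with 24.4 to 28.5 CPM in the others, and Chat at 17.1 CPM was the lowest. Summed astrocyte markers were at 3934 CPM, with medians of 5593 and 5317 CPM, and oligodendrocyte precursor markers at 186.7 CPM, with medians of 266.9 and 275.0 CPM, both the lowest of 16. The astrocyte sum was mostly Slc1a2 (2826 CPM, with 3533 to 4529 CPM in the other congenics), whereas Gjb6 was the highest of 16 at 62.4 CPM. In B6 mouse 8, 68.3% of reads were assigned to genes, the highest share, and striatal projection neuron markers summed to 9174 CPM, also the highest, with a B6 median of 7074 CPM. The part of these differences in the values of the 10 genes was not tested.

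**Figure D4:**
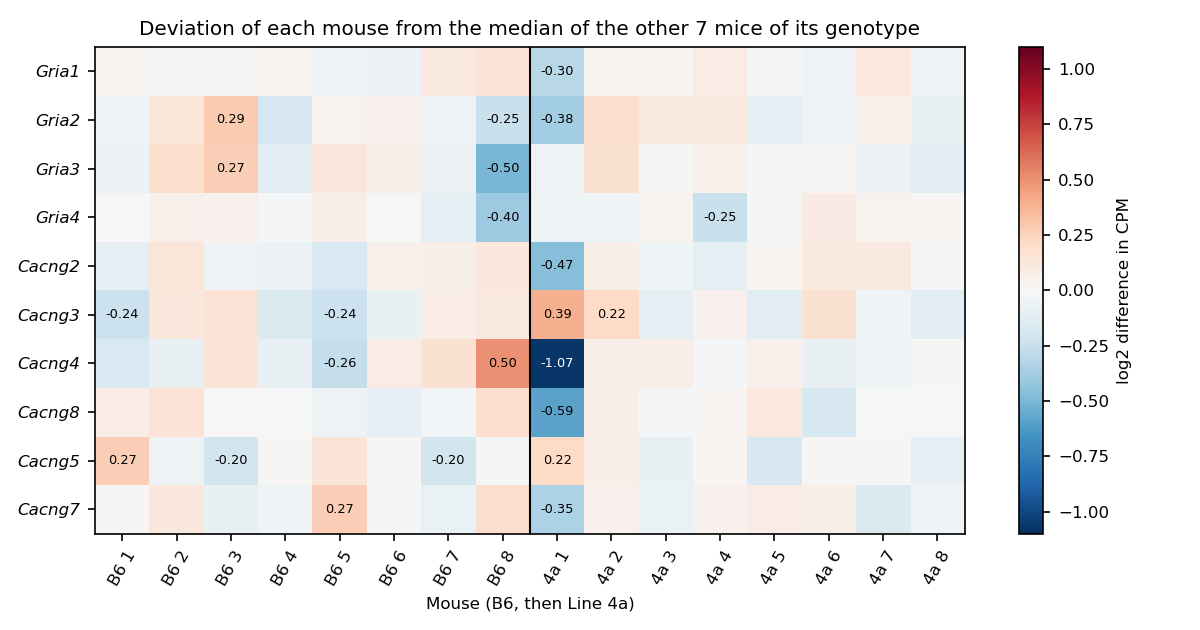
Deviation of each mouse from the median of the other 7 mice of its genotype (colour, log2 difference in CPM) for the 10 genes, with numbers printed where it exceeds 0.2 in size. The column of Line 4a mouse 1 holds 8 such cells and that of B6 mouse 8 holds 4, and no other column holds more than 3.

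Mice were run in 2 pairs of sequencing lanes, each with 4 mice of either genotype. Within lanes 5 and 6 the log2 fold changes of the 10 genes ran from -0.17 for Cacng8 to -0.0035 for Cacng3, and within lanes 7 and 8 from -0.19 for Cacng5 to 0.05 for Gria4. An unadjusted p under 0.05 was found for 0 of the 10 within lanes 5 and 6 and for 1 within lanes 7 and 8 (Cacng3), against 9.01% of all genes in the latter. No difference between the lane pairs passed in an interaction test, with an edgeR FDR of 0.950 or more for all 10. Gria4 had the largest such difference, 0.22 (SE 0.12).

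The cortical markers were combined into a score per mouse, the mean standardized log2 CPM of 12 genes. It was lower in Line 4a, with a median of -0.35 (range -1.43 to 0.89) against 0.54 (-0.49 to 1.20) in B6 and an exact two-sided permutation p of 0.0123 (n = 8 per group). This p-value is no independent test, because the markers were chosen with earlier results of these mice known. Of the markers the study names Slc17a7 as downregulated and places Tbr1 and Neurod6 in a mostly downregulated network. Across the 16 mice the strongest relation of the 10 genes to this score was that of Gria3 by rank (Spearman's rho 0.63, permutation p = 0.0109, adjusted over 10 relations 0.109, Pearson's r 0.46 with p = 0.0702, adjusted 0.228). For Cacng3 Pearson's r was 0.52 (permutation p = 0.0405, adjusted 0.228) and rho 0.48 (p = 0.0644, adjusted 0.161), and r was 0.37 without the 2 mice farthest from the median score. Within genotypes r was 0.50 in B6 and 0.82 in Line 4a for Gria3, and 0.16 and 0.62 for Cacng3. By lane pair r was 0.74 in lanes 5 and 6 but 0.10 in lanes 7 and 8 for Gria3, and 0.52 and 0.42 for Cacng3. None of the 10 relations passed after adjustment. With the score as a covariate, the log2 fold change of Gria3 was 0.08 and that of Cacng3 0.02, and the other 8 stayed below 0, against 47.2% of all genes below 0 in that fit. The score came from these same data and differed between genotypes, so fits with it cannot separate the cortical markers from genotype.

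AMPA receptors also bind or need other proteins in their assembly and at the synapse. Of 20 such genes 19 had a row in the files and were tested. Of these 11 had a lower mean in Line 4a, against 45.1% of all genes. An unadjusted p under 0.05 was found for 7, all lower, against 5.14% of all genes in that direction, and 0 passed FDR 5%. The median log2 fold change of the 19 was -0.05. Without Line 4a mouse 1 it was 8 of the 19 with a p under 0.05, against 13.4% of all genes, in either direction, in that fit. With the cortical score as a covariate 1 of the 19 had a p under 0.05, against 3.28% of all genes. The score itself was lower in Line 4a, so that fit cannot tell the cortical markers and genotype apart.

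The neuronal pentraxins, which cluster AMPA receptors from the synaptic cleft, made up 3 of the 7. Nptx1 ranged from 99.0 to 159.3 CPM in B6 and from 72.1 to 145.0 CPM in Line 4a, with medians of 129.7 and 86.1. The Line 4a median lay below the lowest B6 mouse, yet the groups overlapped, and the log2 fold change was -0.48 (SE 0.13, edgeR FDR 0.331). Nptx2 ranged from 27.5 to 47.6 CPM in B6 and 24.99 to 32.1 CPM in Line 4a, with medians of 33.7 and 27.9 (log2 fold change -0.34, SE 0.09, edgeR FDR 0.331). Nptxr, the membrane-bound form, was near 1 CPM (log2 fold change -0.70, SE 0.33, edgeR FDR 0.494), and its unadjusted p was 0.078 without Line 4a mouse 1. With the cortical score as a covariate these changes were -0.16, -0.14 and -0.19.

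Cnih3, a cornichon that exports receptors from the endoplasmic reticulum and slows their gating, ranged from 29.2 to 45.2 CPM in B6 with a median of 36.3, and from 19.0 to 36.8 CPM in Line 4a with a median of 28.9. The upper end of Line 4a reached the middle of B6, and the log2 fold change was -0.37 (SE 0.11, edgeR FDR 0.361), or -0.05 with the cortical score. Shisa6, an auxiliary subunit that keeps receptors from desensitizing, had a log2 fold change of -0.26 (SE 0.10, edgeR FDR 0.431) and -0.24 with the score. Olfm1, an olfactomedin found with AMPA receptor complexes, had the highest CPM of the list, with medians of 378.5 in B6 and 303.4 in Line 4a (log2 fold change -0.26, SE 0.11, edgeR FDR 0.459), and 0.04 with the score. Its relative Olfm3 had -0.21 (SE 0.07, edgeR FDR 0.385) and -0.23 with the score, the 1 gene whose p stayed under 0.05. Shisa7, second in CPM, was at medians of 275.7 and 289.2 CPM (log2 fold change 0.04, SE 0.07, edgeR FDR 0.854), with 0.09 without Line 4a mouse 1.

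**Figure D5:**
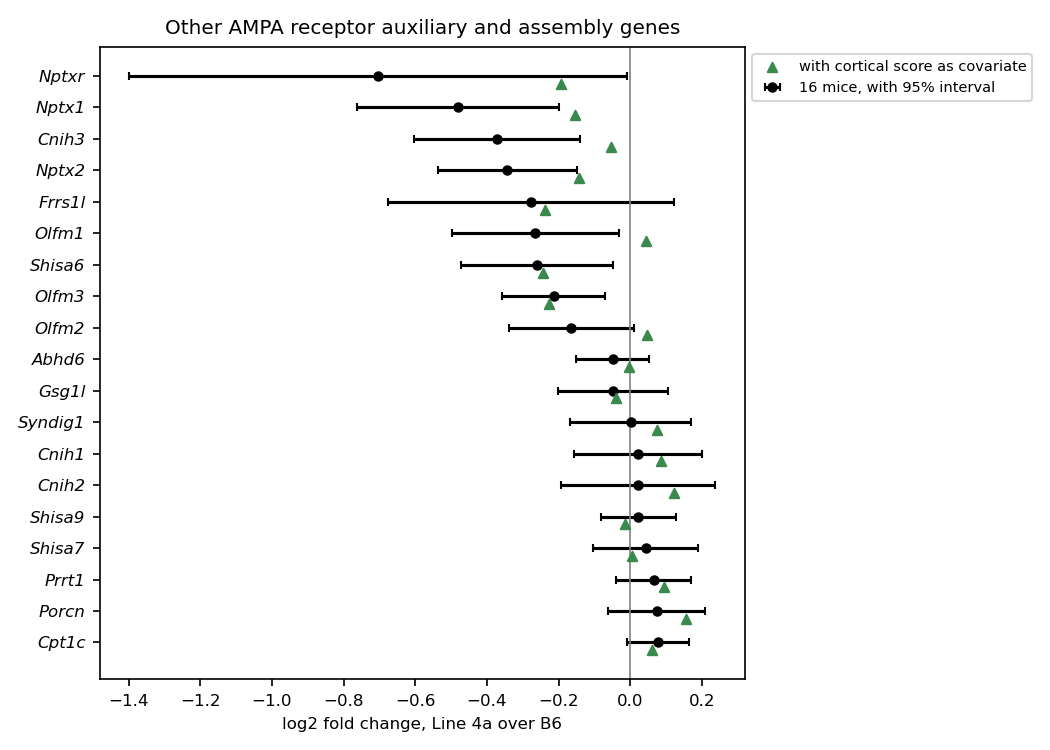
Log2 fold change (x axis, Line 4a over B6) of 19 other AMPA receptor auxiliary and assembly genes over 16 mice (black, bars are 95% intervals) and with the cortical score as a covariate (green), ordered by the black points. The bars of 7 genes lie wholly below 0 (Nptxr, Nptx1, Cnih3, Nptx2, Olfm1, Shisa6 and Olfm3), and most of their green points lie nearer to 0.

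Scaffold and trafficking proteins hold AMPA receptors at the synapse or recycle them. Of 15 such genes 11 had a lower mean in Line 4a, with a median log2 fold change of -0.05, against 45.1% and 0.01 over all genes. At an unadjusted p under 0.05 there were 0, against 5.14% of all genes lower and 4.86% higher. Without Line 4a mouse 1 there was 1 (Grip1, log2 fold change -0.11, unadjusted edgeR p = 0.036), against 13.4% of all genes in that fit. Dlg4 (PSD-95, the main postsynaptic scaffold) ranged from 913.8 to 1105 CPM in B6 and from 814.1 to 1003 CPM in Line 4a (log2 fold change -0.06, SE 0.05, edgeR FDR 0.677), with -0.04 without that mouse. Epb41l1, a cytoskeletal protein that binds GluA1, had a log2 fold change of -0.05 (SE 0.06, edgeR FDR 0.796), and -0.0024 without it. The 3 genes of the RNA editing enzymes, which recode GluA subunit transcripts, had 0 with an unadjusted p under 0.05. Over all genes 5.14% were lower and 4.86% higher at that threshold, so 0 of 3 says little. Adarb1 (ADAR2, which edits the Gria2 pore site) had medians of 234.7 CPM in B6 and 223.3 CPM in Line 4a (log2 fold change -0.09, SE 0.08, edgeR FDR 0.708), and Adar medians of 189.5 and 198.8 CPM (log2 fold change -0.01, SE 0.07, edgeR FDR 0.962). Without Line 4a mouse 1 the changes were -0.03 for Adarb1 and 0.04 for Adar, so the direction of Adar turned on that mouse. Editing itself cannot be read from gene counts and was not measured here.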

How the data were processed

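Striatal polyA RNA of 16 mice was sequenced as single-end reads of 50 bases. The authors aligned reads to mm10 with TopHat2 (version 2.0.0 per the labels) and counted them per gene with HTSeq 0.6.1p1 without strand, leaving out reads that match more than one place. The values deposited by the authors are these raw counts, in 1 file per mouse and lane. Their tables of genotype comparisons (log2 fold changes, p-values and FDR) and their scripts were read for methods at most, and no value was taken from them.

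Lane files were summed per mouse (31 files, with 1 for B6 mouse 7), since the pair from one mouse agreed within sampling error (chi-square per degree of freedom 0.997 to 1.05). Rows that name no gene were left out, and the 23420 gene rows took 61.4 to 68.3% of reads. Genes were kept by edgeR's filterByExpr (minimum count 10), scaled by TMM and tested with the edgeR 4.0.16 quasi-likelihood test of genotype, with Benjamini-Hochberg adjustment over 15589 genes. The study's cage covariate is not in the labels and was not entered. Single values were also compared by an exact permutation test over mice (scipy 1.17.1) of TMM-scaled CPM. Intervals on fold changes come from the edgeR quasi-likelihood fit, so they include the spread between mice as well as counting error.

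The 10 genes and all lists were chosen with earlier results of these data known. Named were these 10, Cacng1, Cacng6 and the 5 tested genes to each side of Gria1. Of each pathway list, genes with an unadjusted p under 0.05 and the 2 with the highest CPM were named. The marker genes Ppp1r1b, Sst, Pvalb and Slc1a2 were among the 2 highest of their lists. Slc17a7, Tbr1 and Neurod6 were named because the study names them, and other genes after their values were seen. Positions are from RefSeq on GRCm38.p6 (mm10). Cnih1, Epb41l1 and Drd1 were found under older symbols, and Shisa8 was not analysed here. Alternatives were DESeq2 1.42.0, edgeR's likelihood ratio test, other scalings and filters, lane pair or cortical score as a covariate, a replicate block, single lanes and lane pairs, lane files as samples, and each mouse left out. Added after seeing the data were the fit without B6 mouse 8 and Line 4a mouse 1 together and lengths from the longest coding transcript.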

Additional observations from a re-analysis of the deposited data

Results flagged for a closer look

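In 7 of 20 groups (10 genes in either genotype) 1 mouse stood far from the other 7, with a gap to its nearest neighbour, as a share of the group's range, above Dixon's 95% critical value for 8 values. Chance alone marks about 1 in 20 groups. In Line 4a mouse 1, Gria1 was low at 392.9 CPM (others 471.5 to 517.7), Cacng2 at 38.0 (49.0 to 55.7), Cacng4 at 16.8 (33.5 to 36.9) and Cacng8 at 19.1 (25.5 to 31.1). In B6 mouse 8, Gria4 was low at 107.1 CPM (131.3 to 147.1) and Cacng4 high at 46.1 (28.9 to 36.5). In Line 4a mouse 4, Gria4 was low at 113.8 CPM (130.4 to 141.4), while its other 9 genes lay inside the range of the other congenics. So 4 of the 7 belong to 1 mouse, and the 7 are not independent.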

How the results depend on the processing

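None of the 10 genes passed FDR 5% in any of the 30 alternative fits, and the lowest FDR was 0.311, or 0.0879 with lane files entered as samples, which counts each mouse more than once. Of 300 fold changes 5 changed sign: Gria3 (0.083) and Cacng3 (0.021) with the cortical score as a covariate, Gria4 (0.049) within lanes 7 and 8, and Cacng4 without Line 4a mouse 1 (0.029) and without that mouse and B6 mouse 8 together (0.10). Leaving out single mice, the log2 fold change of Cacng4 ran from -0.10 to 0.029. The count of the 10 with an unadjusted p under 0.05 was then 0 to 2. This count was 1 without B6 mouse 8 (against 8.86% of all genes) and 2 without Line 4a mouse 1 (against 13.4%). That count was 2 with lane files as samples (against 24.3% of all genes), 1 within lanes 7 and 8 (against 9.01%), and 2 without both mice together (Gria4 and Cacng5, against 12.8%).

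Over all genes, 1 passed FDR 5%, and 20 did with the likelihood ratio test (0.128%), 25 with DESeq2 (0.160%), 2 with lane pair as a covariate, 0 with the cortical score, 0 within either lane pair, 1068 with lane files as samples, 7 without both mice together and 1 to 4 with each mouse left out, 4 being without Line 4a mouse 1 and 3 without Line 4a mouse 6. Of the auxiliary genes 7 had an unadjusted p under 0.05, all lower, against 5.14% of all genes in that direction. With the cortical score 1 did, against 3.28% of all genes. Within lanes 5 and 6 the count was 0, and within lanes 7 and 8 it was 7, against 9.01% of all genes in the latter. With each mouse left out it was 5 to 9. The causes were not tested. With the replicate number as a block 0 genes passed. Deviations of same-numbered mice had correlations from -0.12 to 0.36, over 0.1 in 3 of 8 pairs, and 2 of 8 mice correlated best with their own number. These values cannot decide whether the numbers pair the mice, because the labels do not give cage. With the longest coding transcript as length, Gria1 stood at 87.6, Gria3 at 48.9 and Gria4 at 24.8 CPM per kb.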

Other observations

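Line 4a mouse 1 also stood apart in AMPA receptor assembly genes, chosen here after their values were seen. Frrs1l, which takes part in receptor assembly in the endoplasmic reticulum, was at 33.4 CPM in that mouse, with 107.0 to 139.3 CPM in the other 7 congenics and 119.6 to 171.9 CPM in B6. The cornichon Cnih2 was at 290.1 CPM there, with 165.7 to 196.4 CPM in the other congenics, and Cnih1 at 101.9 CPM, with 61.7 to 68.6 CPM. Frrs1l had a log2 fold change of -0.28 (SE 0.19, edgeR FDR 0.623) over all mice and -0.14 without that mouse. Arc, an activity-regulated gene whose protein removes AMPA receptors from the surface, was the most spread of the scaffold and trafficking genes, at 54.5 to 180.7 CPM in B6 and 49.6 to 128.7 CPM in Line 4a (log2 fold change -0.43, SE 0.24, edgeR FDR 0.564).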
